A study of Sus scrofa with 63 samples.

Results

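Jejunum of purebred Large White (LW) fetuses was compared between day 110 and day 90 of gestation. The comparison used the 18 LW fetuses, 9 at each age, of the 63 fetuses in the series, and they were selected by their labelled genotype and age alone. The other fetuses were 6 and 7 purebred Meishan (MS) fetuses at day 90 and day 110, 9 and 9 LWMS fetuses with an LW sire and an MS sow, and 8 and 6 MSLW fetuses with an MS sire and an LW sow. They entered the fit that estimates the spread, and their own changes with age are given where LW was set against them. All fetuses were males obtained by caesarean, no group received a treatment, and RNA came from a whole piece of the middle jejunum. Litters were sired with mixed semen, so that LW and MSLW fetuses could be litter mates. Sows could not be entered in the fit, litter mates were counted as independent, and p-values can therefore be too small where litters differ.

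Late gestation is when the jejunum of the pig prepares for birth. Fetal enterocytes take up macromolecules by endocytosis and already carry lactase and apolipoproteins, and goblet cells, crypts and mucosal defence continue to develop until term. Glucocorticoids and thyroid hormone rise towards birth in the pig and are known to promote these processes.

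A level is the log2 signal of a probe relative to the 75th percentile of its array, so that a level of 0 is a bright probe and a log2-fold change is the level at day 110 minus the level at day 90. A probe was called when its limma adjusted p was at most 0.01 and its log2-fold change at least 0.5 in size. Of 40515 probes tested, 904 (2.23%) were up-regulated and 1024 (2.53%) were down-regulated at day 110 compared with day 90. With each gene represented by its brightest tested probe, 303 (2.76%) of 10988 genes were up-regulated and 346 (3.15%) were down-regulated, and the median log2-fold change of all genes was -0.01. The ranges of the age groups did not overlap for 79 genes (0.719%) that were higher at day 110 and for 113 genes (1.03%) that were lower. These shares are the background for the counts of each functional group.

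In LW, probes well above background made up 56.7 to 73.9% (median 69.1%) of the array at day 90 and 51.2 to 71.5% (median 60.5%) at day 110, a difference in means of -5.17 percentage points (two-sided exact permutation test over 48620 splits, p = 0.0702). It was -3.82 points without fetus 469, which had the lowest share, and -6.47 points without fetus 895 (two-sided exact permutation p = 0.0187). Fetus 484 at day 90 and fetus 469 at day 110 correlated least with the other fetuses of their groups, with a median Pearson r over all tested probes of 0.925 and 0.938, against 0.949 to 0.983 for the others. Without both, 708 probes were up-regulated and 791 down-regulated. Calls of named genes that were lost without them are stated beside the genes. The labelled tissue was checked against 7 enterocyte markers. VIL1, the microvillus actin bundler, had levels of 1.96 to 3.29 (median 2.82) at day 90 and 1.09 to 3.53 (median 2.82) at day 110, and all 9 arrays of each age were well above background. SI, the sucrase-isomaltase that the pig gains mainly after birth, was well above background on 2 and 1 of 9 arrays. Smooth muscle markers were bright at both ages, with list means of 2.98 to 3.38 at day 90 and 2.72 to 3.73 at day 110. In such whole-tissue samples fewer cells of a type and less RNA per cell cannot be told apart.

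The probes with which the main genes were measured are shown by the first 30 of their 60 bases, as the array files give them, because the results rest on these sequences. No genome position is given, and the strand is that of the printed probe. The first 4 belong to genes that were higher at day 110 and the last 3 to genes that were lower.
REG3G: tccatggcctatgcttcctactgctatgcc
DIO1: cggctgtgacttgatttgaaaggaaatgtt
PIGR: tctaagctctgcacttccactagcacctat
OLFM4: gcaaaagggtcatctgcttagtagtaatat
CA4: cctcaggcttcccaggttgcactttgatga
RBP4: cttccctggagttttctaagaatcatttga
AQP8: agatcatcctgacgacactgctggtgctgg

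Genes of mucosal defence included the 2 largest rises. REG3A and REG3G, secreted lectins that kill bacteria at the epithelial surface, were higher at day 110 in every LW fetus than in any fetus at day 90. The level of REG3A was -4.07 to -0.40 (median -3.05) at day 90 and 1.36 to 5.95 (median 4.34) at day 110. Its log2-fold change was 6.65 (SE 0.85, adjusted p = 5.87e-08), a 101-fold difference. The level of REG3G was -5.79 to -2.23 (median -4.72) at day 90 and -1.72 to 4.20 (median 1.54) at day 110, a log2-fold change of 6.28 (SE 0.85, adjusted p = 2.5e-07), and at day 90 it was well above background on 6 of 9 arrays. PIGR, the receptor that carries polymeric IgA across the epithelium, had levels of -7.40 to -3.83 (median -5.90) at day 90 and -3.35 to 2.01 (median 0.72) at day 110. It rose (log2-fold change 5.59, SE 0.70, adjusted p = 3.93e-08), the groups did not overlap, and 4 of 9 arrays were well above background at day 90. Where a gene was not well above background on every array of an age, the size of its change depended on the background correction. With normexp it was 4.70 for REG3G and 3.53 for PIGR, and for genes described further on it was 3.12 for DIO1, 2.71 for SMPDL3B, 1.77 for G6PC and -3.12 for APOH, each still called. LBP, which binds bacterial lipopolysaccharide, rose from a range of -2.01 to -0.17 (median -1.48) to one of 1.71 to 3.70 (median 2.43) (log2-fold change 3.87, SE 0.50, adjusted p = 9.2e-08), and both of its tested probes were called. DMBT1, a mucin-like glycoprotein that binds bacteria, rose by 3.05 (SE 0.37, adjusted p = 1.2e-08) in all 4 of its probes.

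CCL28, a chemokine that attracts IgA plasma cells to mucosae, was dim at day 90, with 0 of 9 arrays well above background, and was above it on 7 of 9 arrays at day 110. Its level was -8.50 to -5.43 (median -6.83) at day 90 and -5.97 to -1.23 (median -2.78) at day 110, so that the signal at day 110 was at least 4.09-fold higher (adjusted p = 5.63e-06). TLR3, a sensor of double-stranded RNA, rose by 0.85 (adjusted p = 0.00124). In the opposite direction, the cathelicidin PMAP-23 changed by -2.55 (adjusted p = 0.000582), the antiprotease WFDC2 by -2.01 (adjusted p = 0.00064) and the peptidoglycan amidase PGLYRP2 by -1.29 (adjusted p = 6.64e-05). For WFDC2 every fetus at day 110 was below every fetus at day 90. Mucosal defence as a whole had 6 rising and 3 falling genes of 30 tested, with a median log2-fold change of 0.45, and thus moved in both directions. Some gene names came only from tables that the study compiled from these fetuses. With names from the array files and RefSeq alone, 5 rose and 3 fell of 29. Among markers of immune cells, 0 of 19 for T and NK cells, 0 of 10 for B and plasma cells and 0 of 15 for macrophages and dendritic cells were called, with median log2-fold changes of 0.04, -0.19 and 0.07. Of 9 mast cell and granulocyte markers 8 were higher at day 110, the median log2-fold change was 0.61, and the list mean was -3.86 to -1.75 (median -3.22) at day 90 and -3.98 to -1.51 (median -2.15) at day 110. The called one was CXCR2, the neutrophil chemokine receptor, at 1.34 (adjusted p = 5.47e-06). The part of these cells in the rises was not tested.

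**Figure D1:**
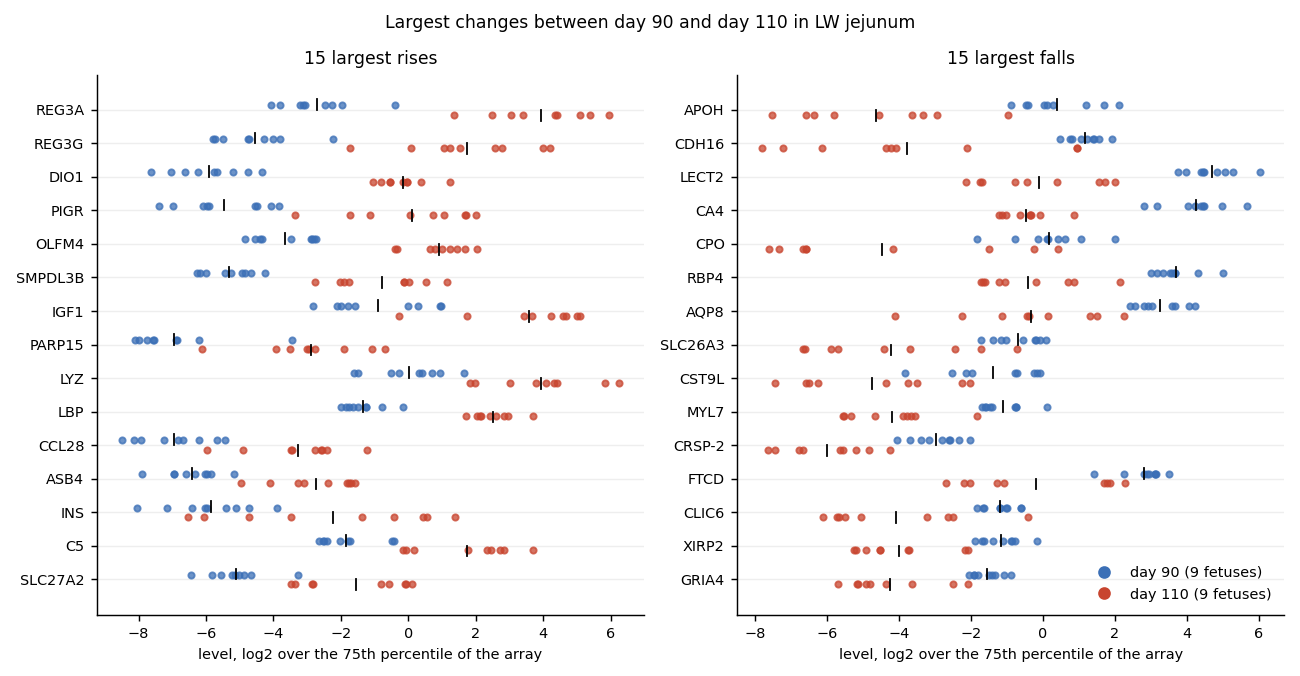
Level (log2 signal over the 75th percentile of the array) of the 15 genes with the largest rises and the 15 with the largest falls between day 90 and day 110 in LW. Each point is 1 fetus (9 per age) and bars are means. The REG3A points at day 110 lie between 1.36 and 5.95, all above the highest point at day 90, -0.40, and the CA4 points at day 110 lie at 0.87 or lower, all below those at day 90.

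Products of goblet and Paneth cells rose as well. Of 12 such genes tested, 4 rose and 0 fell, and the median log2-fold change was 1.24. LYZ, the Paneth cell lysozyme, was measured by 5 probes that all rose. The level of its brightest probe was -1.60 to 1.65 (median 0.31) at day 90 and 1.82 to 6.25 (median 4.09) at day 110, a log2-fold change of 3.93 (SE 0.65, adjusted p = 1.75e-05) without overlap between the ages. SPDEF, the transcription factor of goblet cell maturation, rose by 2.32 (SE 0.45, adjusted p = 0.000221), CLCA1, a secreted goblet cell protein, by 1.58 (SE 0.26, adjusted p = 1.96e-05), and FCGBP, which forms part of the mucus, by 1.15 (SE 0.28, adjusted p = 0.00393). In each of them 7 or 8 of the 9 fetuses at day 110 lay above all fetuses of day 90. FCGBP missed the threshold without fetuses 484 and 469 (adjusted p = 0.0278), without 484 alone or without 850 alone (adjusted p up to 0.0168). MUC2, the main secreted mucin, did not pass (log2-fold change 1.30, adjusted p = 0.14).

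TFF2, a trefoil peptide secreted with mucus, had the widest range of these genes and is named after its values were seen. Its level was -3.06 to 2.42 (median -1.91) at day 90 and -1.57 to 9.29 (median 7.03) at day 110. At day 110, 6 of 9 fetuses lay above all fetuses of day 90 and the others within their range. Its log2-fold change of 5.69 (SE 1.60) did not pass (adjusted p = 0.0132).

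In the crypt, OLFM4, a secreted glycoprotein of crypt base cells, stood apart from the other genes. Its level was -4.85 to -2.73 (median -3.48) at day 90 and -0.41 to 2.04 (median 1.01) at day 110, a log2-fold change of 4.55 (SE 0.47, adjusted p = 3.68e-10). LGR4, a receptor for the Wnt agonists of the R-spondin family, rose by 0.56 (adjusted p = 0.00519) and missed the threshold without fetuses 484 and 469 (adjusted p = 0.0147) and when any 1 of 5 fetuses (469, 572, 850, 736 or 887) was left out (adjusted p up to 0.0158). The stem cell receptor LGR5 did not differ (log2-fold change -0.09, SE 0.26, adjusted p = 0.899). Of 15 crypt and Wnt genes tested, 2 rose and 0 fell. Both were paired with their gene by tables that the study compiled from these fetuses, so the pairing is not independent of the result, and with names from the array files and RefSeq alone 0 of 13 were called. In the same way 0 of 12 microvillus genes rose, 0 of 21 IGF and fetal growth genes were called, and 253 genes (2.4%) rose and 302 (2.86%) fell of 10560. Of 36 cell cycle genes, 0 rose and 1 fell, the cyclin-dependent kinase CDK4 (log2-fold change -0.51, adjusted p = 0.00909, with all 3 probes called). Its call was lost without fetuses 484 and 469 (log2-fold change -0.46, adjusted p = 0.032), on leaving out any 1 of 12 fetuses, and under 6 other alternatives, among them the authors' values, where the change of -0.47 was under the minimum, and the LW arrays alone (adjusted p = 0.0251). The proliferation marker MKI67 had a log2-fold change of 0.07 (adjusted p = 0.862).

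Among genes tied to the hormones of late gestation, 3 rose and 1 fell of 22 tested. DIO1, the deiodinase that makes active thyroid hormone from its precursor, had levels of -7.64 to -4.34 (median -5.77) at day 90, with 3 of 9 arrays well above background, and of -1.05 to 1.23 (median -0.15) at day 110, with all 9. The groups were apart by more than 3 log2 units and the log2-fold change was 5.75 (SE 0.61, adjusted p = 6.19e-10). FKBP5, a chaperone gene induced by glucocorticoids, had levels of -4.36 to -1.91 (median -3.29) at day 90 and -2.10 to 0.05 (median -1.23) at day 110. All 3 of its probes rose (log2-fold change 2.07, SE 0.29, adjusted p = 5.2e-07). KLF9, a transcription factor gene induced by both hormones, rose by 1.55 (SE 0.23, adjusted p = 1.83e-06), and 10 of its 12 probes were called. THRB, the beta receptor of thyroid hormone, changed the other way (log2-fold change -1.02, SE 0.17, adjusted p = 1.94e-05), with levels of 3.15 to 4.13 (median 3.52) at day 90 and 2.14 to 3.43 (median 2.40) at day 110, and all 6 probes fell. Over the 22 genes the median log2-fold change was 0.56, and 17 had a higher mean at day 110. The glucocorticoid receptor NR3C1 did not differ (0.07, SE 0.13, adjusted p = 0.811).

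**Figure D2:**
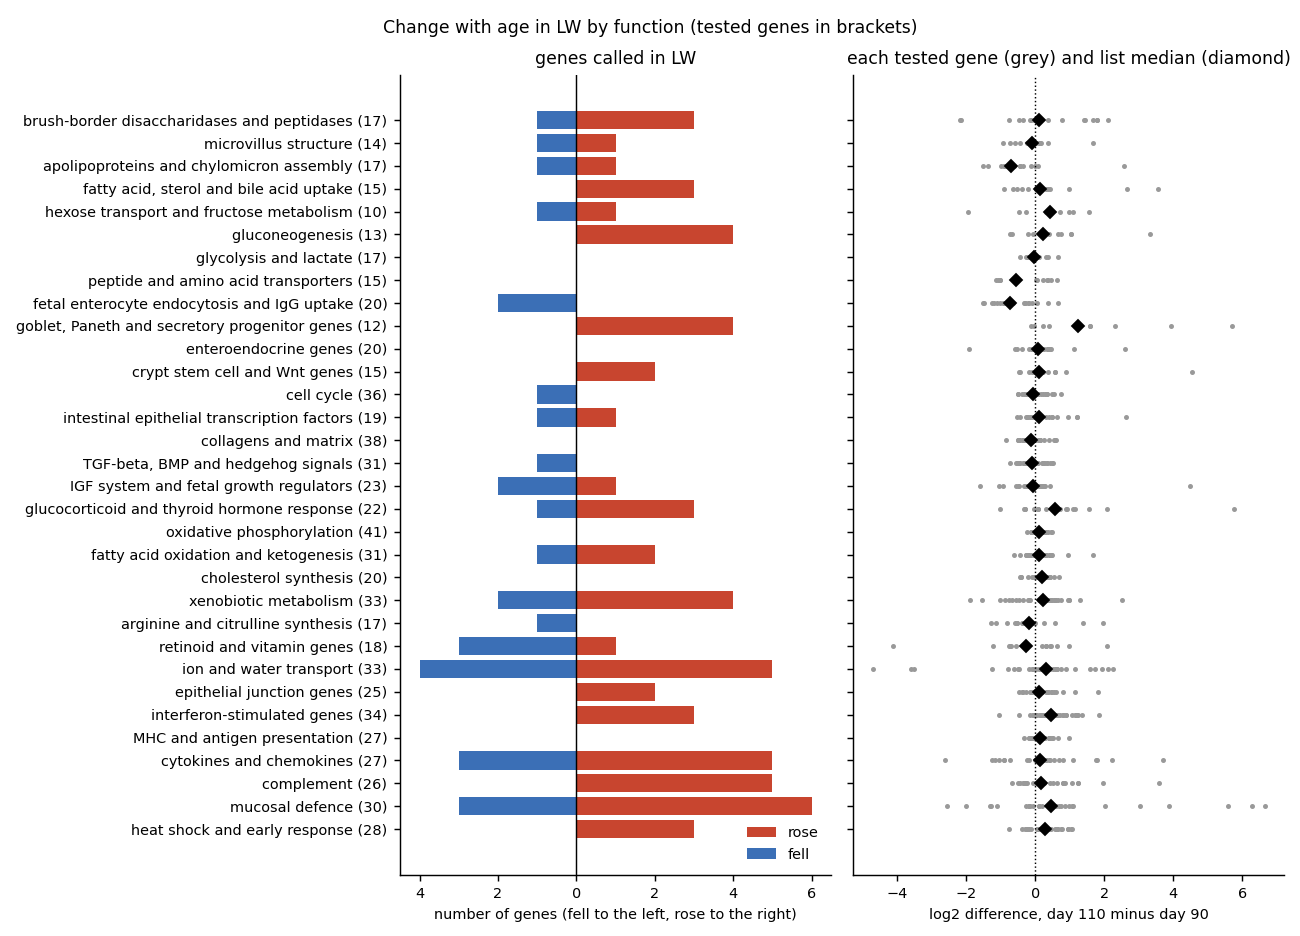
Number of members that rose or fell (left) and the log2-fold change between day 90 and day 110 in LW of every tested member (right, points, with diamonds for the median) for each list of genes. The dotted line is the median of all genes, -0.01. The median is highest for goblet and Paneth products, 1.24, and lowest for fetal endocytosis and IgG uptake, -0.73.

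Among growth regulators, HMGA2, a chromatin protein of fetal cells, had levels of -0.56 to 0.74 (median 0.34) at day 90 and -2.52 to -0.60 (median -1.17) at day 110. It fell in every LW fetus relative to those of day 90 (log2-fold change -1.60, SE 0.21, adjusted p = 1.18e-07), and both probes were called. IGF2BP1, a fetal RNA-binding protein that binds IGF2 mRNA, changed by -1.05 (SE 0.18, adjusted p = 1.77e-05). The brightest probes of HMGA2 and IGF2BP1 were paired with their genes only in the study's tables, which were compiled from these fetuses. With names from the array files and RefSeq alone, 0 of 21 IGF and fetal growth genes were called. For IGF1, the insulin-like growth factor 1, the probes differed. The brightest of its 3 tested probes, paired with the gene only in the study's tables, had levels of -2.82 to 0.97 (median -1.57) at day 90 and -0.27 to 5.10 (median 4.23) at day 110. Its log2-fold change was 4.47 (SE 0.64, adjusted p = 1e-06), whereas the 2 probes that the array files name as IGF1 changed by 0.12 each (adjusted p = 0.714 and 0.718). The probes are printed because they share no run of more than 6 bases, and whether they measure the same transcript was not tested.
IGF1, rising probe: ttatgttgtcttgtggccagaaagctgttt
IGF1, second probe: gtttgaaaacatttcaaaagatgggcattc
IGF1, last probe: ggcaagtcactctacctctttgtgcctcag
INS, the insulin gene, also had probes that differed. The probe of its mRNA had levels of -8.04 to -3.91 (median -5.96) at day 90 and -6.54 to 1.38 (median -1.39) at day 110 and rose by 3.62 (SE 0.97, adjusted p = 0.00888), and the other changed by -0.57 (adjusted p = 0.0495). The call of INS was lost when any 1 of 12 of the 18 fetuses was left out (adjusted p up to 0.026), and with quantile normalization or the authors' values. None of 6 pancreatic acinar markers was called, and their list mean was -0.99 to 0.083 at day 90 and -1.48 to 0.876 at day 110. VDR, the vitamin D receptor, rose without overlap from -0.47 to 1.83 (median 0.56) to 2.28 to 3.79 (median 3.24) (log2-fold change 2.62, SE 0.27, adjusted p = 3.7e-10). This held for 1 of its 2 probes, which was paired with the gene only in the study's tables. With names from the array files and RefSeq alone, 0 of 19 epithelial transcription factor genes rose. NR5A2, a nuclear receptor of crypt cells, changed by -0.53 (adjusted p = 0.0077) and was called in 8 of the 18 fits that each left out 1 fetus.

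Genes for making and using sugars rose in part. G6PC, the last enzyme of gluconeogenesis, had levels of -6.04 to -5.27 (median -5.70) at day 90 and -5.10 to 0.28 (median -1.90) at day 110. No fetus at day 110 was as low as any at day 90, and it rose (log2-fold change 3.32, SE 0.46, adjusted p = 4.75e-07), with 3 of 9 arrays well above background at day 90 and 8 of 9 at day 110. FBP2, a fructose bisphosphatase, rose by 1.04 (SE 0.17, adjusted p = 1.02e-05). GPT, the alanine aminotransferase (log2-fold change 1.03, adjusted p = 0.00494), and PPARGC1A, the coactivator of gluconeogenic and mitochondrial genes (log2-fold change 0.67, adjusted p = 0.00932), passed narrowly with their brightest probes. PPARGC1A lost its call without fetuses 484 and 469 (adjusted p = 0.0395) and on leaving out any 1 of 14 fetuses (adjusted p up to 0.0359), and GPT on leaving out any 1 of 6 (adjusted p up to 0.0178). Other probes of both were further past the threshold, for GPT 1 at 1.70 (adjusted p = 1.06e-06) and for PPARGC1A 2 at 0.77 and 0.96 (adjusted p = 0.000484 and 0.000543). PCK1, the first committed enzyme of the pathway, had levels of 1.38 to 2.43 (median 1.60) at day 90 and 0.30 to 3.88 (median 2.83) at day 110, so that the fetuses of day 110 lay on both sides of day 90 (adjusted p = 0.526). In all, 4 of 13 gluconeogenic genes rose and 0 fell. Of 17 genes of glycolysis and lactate, 0 were called, with GAPDH changing by 0.07 (adjusted p = 0.845) and GPI by 0.02 (adjusted p = 0.942). KHK, which phosphorylates fructose, rose without overlap between the ages, at levels of -1.77 to -1.08 (median -1.44) at day 90 and -0.73 to 1.44 (median -0.12) at day 110 (log2-fold change 1.55, SE 0.24, adjusted p = 2.81e-06). SLC5A11, a sodium-coupled inositol and glucose transporter, had a log2-fold change of -1.96 (adjusted p = 0.00115). Its level was 2.99 to 3.52 (median 3.22) at day 90 and -2.94 to 3.10 (median 1.67) at day 110. The highest fetuses of day 110, at 3.04 and 3.10, lay within the range of day 90. With the LW arrays alone the call of SLC5A11 was lost (adjusted p = 0.047). SLC5A1, the glucose transporter of the brush border, did not pass (log2-fold change 1.11, adjusted p = 0.0379).

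FABP1, the liver-type fatty acid binding protein of enterocytes, rose in all 4 of its probes. Its level was 4.12 to 5.77 (median 4.99) at day 90 and 6.71 to 8.82 (median 7.78) at day 110, without overlap (log2-fold change 2.67, SE 0.30, adjusted p = 2.44e-09). SLC27A2, a fatty acid transporter and acyl-CoA synthetase, rose by 3.56 (SE 0.63, adjusted p = 4.95e-05) and SLC51B, a subunit of the bile acid exporter, by 0.96 (SE 0.23, adjusted p = 0.00258). These 3 were the called members of 15 genes of fatty acid, sterol and bile acid uptake, and 0 fell. Among apolipoproteins and chylomicron genes 1 rose and 1 fell of 17, and the median log2-fold change was -0.70, with 2 members higher at day 110. APOC3, an inhibitor of lipoprotein lipase, had levels of 0.79 to 4.31 (median 2.26) at day 90 and 1.97 to 7.73 (median 6.01) at day 110. Its rise of 2.58 (adjusted p = 0.00989) was lost without fetuses 484 and 469 (adjusted p = 0.0527) and on leaving out any 1 of 13 fetuses (adjusted p up to 0.0307). PLIN2, a coat protein of lipid droplets, changed by -0.88 (SE 0.18, adjusted p = 0.000531). Among 31 genes of fatty acid oxidation, PDK4, the kinase that shuts off pyruvate oxidation, rose by 1.68 (SE 0.33, adjusted p = 0.000282) in 9 of 11 probes called. The peroxisomal enzyme EHHADH at 0.95 (adjusted p = 0.00908) and the thiolase ACAA2 at -0.63 (adjusted p = 0.00657) lost their calls without fetuses 484 and 469 (adjusted p = 0.0187 and 0.0165). None of 41 oxidative phosphorylation or 20 cholesterol synthesis genes was called, and their median log2-fold changes were 0.12 and 0.19.

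Enzymes of the brush border were called in both directions. Of 17 tested, 3 rose and 1 fell. DPP4, a dipeptidyl peptidase that ends the action of incretins, had levels of 1.69 to 2.40 (median 2.01) at day 90 and 2.86 to 4.99 (median 3.55) at day 110. The groups did not overlap (log2-fold change 1.80, SE 0.21, adjusted p = 9.06e-09). NAALADL1, a dipeptidase, rose by 1.67 (SE 0.32, adjusted p = 0.000166), although 1 of the 2 NAALADL1 probes was not higher at day 110. XPNPEP2, an aminopeptidase for proline peptides, changed by -2.16 (SE 0.43, adjusted p = 0.00029). Its level was 0.90 to 2.55 (median 1.48) at day 90 and -3.30 to 1.65 (median -0.71) at day 110, with overlap. The call of XPNPEP2 was lost with the LW arrays alone (adjusted p = 0.0157). LCT, the lactase of milk digestion, was higher at day 110 in 8 of 9 fetuses than in any fetus at day 90, with levels of 1.12 to 3.40 (median 2.82) at day 90 and 1.50 to 5.40 (median 4.78) at day 110, but did not pass (log2-fold change 1.45, SE 0.46, adjusted p = 0.031). In the microvillus, the motor MYO1A rose by 1.67 (SE 0.19, adjusted p = 2.17e-09) without overlap and the scaffold USH1C changed by -0.74 (adjusted p = 0.00668), which was lost on leaving out any 1 of 8 fetuses (adjusted p up to 0.0292). The brightest probe of MYO1A was paired with the gene only in the study's tables, and without these names 0 of 12 microvillus genes rose. KRT20, a keratin of differentiated villus cells, had levels of 0.92 to 1.82 (median 1.49) at day 90 and 2.17 to 4.47 (median 2.87) at day 110 and rose by 1.81 (SE 0.31, adjusted p = 3.13e-05). The tight junction gene CLDN3 rose by 0.80 (adjusted p = 0.00452, and 0.0189 without fetuses 484 and 469), and 0 of 25 junction genes fell.

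Genes of the absorptive enterocyte varied widely between the fetuses of day 110. The mean level of the 17 apolipoprotein and chylomicron genes was 2.65 to 3.51 in the 9 fetuses at day 90 and 0.66 to 3.80 in those at day 110. At day 110 it was 0.66 in fetus 575, 1.23 in 572, 1.69 in 559, 1.86 in 557, 2.92 in 850, 3.42 in 670, 3.51 in 854, 3.53 in 469 and 3.80 in 852. The same fetuses were low in other absorptive lists, and whether they shared a sow or differed in the sampled site was not tested. The mean of 7 enterocyte markers was 2.01 to 2.62 at day 90 and 0.185 to 3.88 at day 110, and it was below all fetuses of day 90 in 557, 559, 572 and 575 and above them in the other 5. The brush-border mean was 0.41 to 0.82 at day 90 and -1.06 to 2.23 at day 110, with the same 4 fetuses at -1.06, -0.17, -0.13 and 0.37. APOB, the structural protein of chylomicrons, had levels of 5.73 to 6.84 (median 6.40) at day 90 and 1.53 to 6.85 (median 5.88) at day 110, and FABP2, the intestinal fatty acid binding protein, of 5.79 to 7.03 (median 5.96) at day 90 and 2.28 to 7.62 (median 6.27) at day 110. Neither passed (adjusted p = 0.0348 and 0.675).

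The SD between fetuses showed the same. The median SD of a gene was 0.38 at day 90 and 1.27 at day 110 in the apolipoprotein list, 0.60 and 1.37 in the brush-border list, and 0.41 and 1.02 in the 15 peptide and amino acid transporters, of which 0 were called. Over all genes it was 0.35 and 0.37, and the SD was larger at day 110 for 53.6% of them, against 16 of 17 apolipoprotein genes. Without fetuses 484 and 469 the values over all genes were 0.28 and 0.34, with 65.3% larger at day 110, and 16 of 17 apolipoprotein genes were again larger. Products of mucosal defence had another order of fetuses. Their list mean at day 110 was lowest in 852, 854 and 670 (-0.95, -0.81 and -0.70), and so was that of goblet and Paneth genes (1.68, 1.88 and 1.998, against 3.07 to 4.00 in the other 6). These values describe 9 fetuses and were not tested, and the share of a sample taken by epithelium was not measured. In the other genotypes at day 110, the apolipoprotein mean was -0.21 to 3.98 in MS, 2.01 to 3.92 in LWMS and 2.63 to 3.96 in MSLW, so that the lowest fetus was an MS fetus and the SD was 1.16 in LW, 1.52 in MS, 0.55 in LWMS and 0.46 in MSLW.

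**Figure D3:**
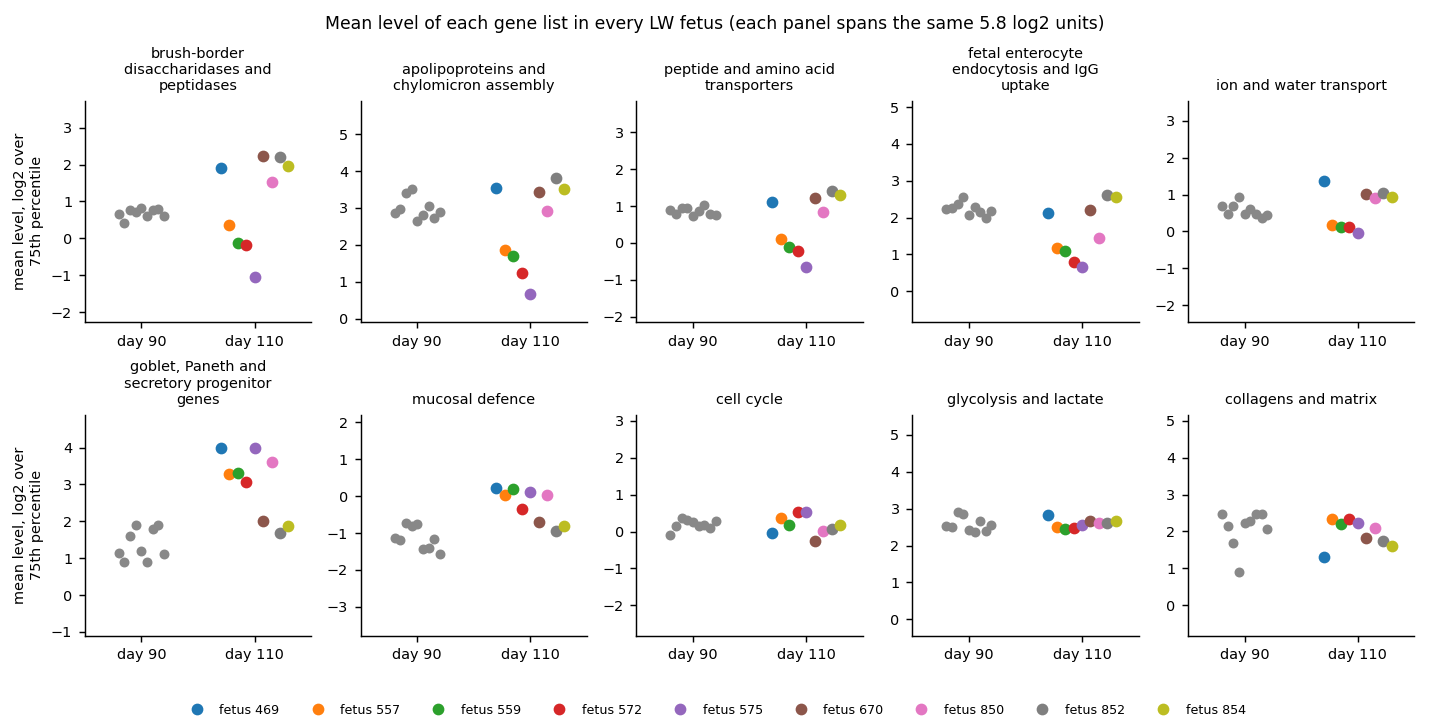
Mean level of the members of 10 gene lists in each LW fetus. Grey points are the 9 fetuses at day 90 and coloured points the 9 fetuses at day 110, in order of fetus number with the same colour for a fetus in every panel. The apolipoprotein mean lies between 2.65 and 3.51 at day 90 and between 0.66 and 3.80 at day 110, with fetus 575 lowest.

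Of 20 genes of endocytosis and IgG uptake, functions of the fetal enterocyte, 0 rose and 2 fell. The mean was higher at day 110 for 3 of them, and the median log2-fold change was -0.73. NEU1, the lysosomal sialidase, had levels of 1.98 to 3.03 (median 2.74) at day 90 and 0.06 to 2.86 (median 0.84) at day 110 (log2-fold change -1.26, SE 0.33, adjusted p = 0.00703), and DAB2, an endocytic adaptor, of 4.06 to 5.02 (median 4.77) at day 90 and 2.27 to 4.97 (median 3.80) at day 110 (log2-fold change -1.03, SE 0.27, adjusted p = 0.00794). Both overlapped between the ages, and both calls were lost on leaving out any 1 of 10 (NEU1) or 13 (DAB2) fetuses, with adjusted p up to 0.0233 and 0.0302. The fetuses of day 110 that were low in absorptive genes, 557, 559, 572 and 575, were below the range of day 90 in both. Fetuses 850 and 469 were below it too. At day 110 the level of NEU1 was 0.64, 0.09, 0.44 and 0.06 in 557, 559, 572 and 575, and 2.56, 2.86 and 2.76 in 670, 852 and 854, within the range of day 90, with 850 at 0.84 and 469 at 1.44. DAB2 was lowest in 575 and 572 (2.27 and 2.39) and within the range of day 90 in 670, 852 and 854 (4.29, 4.73 and 4.97). Its level was 3.30, 3.39, 3.80 and 3.95 in 559, 850, 557 and 469. NEU1 had 1 probe. Of 7 DAB2 probes 1 was called, and the other 6 changed by -1.09 to -0.55 (adjusted p = 0.0878 to 0.495). CUBN, the scavenger receptor cubilin, at -1.52 (adjusted p = 0.0335), and FCGRT, the neonatal Fc receptor, at -0.29 (adjusted p = 0.168), did not pass.

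Transport of ions and water changed in both directions, with 5 genes rising and 4 falling of 33. CA4, the membrane carbonic anhydrase, had the smallest p of all falls named here. Its level was 2.80 to 5.67 (median 4.39) at day 90 and -1.21 to 0.87 (median -0.36) at day 110, a 26.2-fold decrease without overlap (log2-fold change -4.71, SE 0.47, adjusted p = 1.48e-10), and both probes fell. AQP8, a water channel, had levels of 2.42 to 4.23 (median 3.03) at day 90 and -4.10 to 2.26 (median -0.39) at day 110, also without overlap (log2-fold change -3.60, SE 0.54, adjusted p = 2.81e-06). SLC26A3, which exchanges chloride for bicarbonate, changed by -3.51 (SE 0.67, adjusted p = 0.000158) and was well above background on all 9 arrays at day 90 and on 4 of 9 at day 110. Over the alternatives of processing its change was -4.02 to -2.03. GUCA2B, the peptide uroguanylin, changed by -1.26 (adjusted p = 0.00263) in all 3 probes, and the call was lost without fetuses 484 and 469 (adjusted p = 0.0113) and without 484 or 575 alone (adjusted p up to 0.0104). Of the 5 genes that rose, 3 carry metals. SLC39A4, the zinc importer of enterocytes, had levels of 1.80 to 2.62 (median 2.07) at day 90 and 3.34 to 5.40 (median 4.12) at day 110 (log2-fold change 2.12, SE 0.29, adjusted p = 3.32e-07). SLC11A2, the iron importer, was higher in every fetus at day 110, at 2.63 to 6.56 (median 3.46) against 1.69 to 2.18 (median 1.96), and its change of 1.94 (adjusted p = 0.00226) rested in part on fetuses 469 (6.56) and 850 (5.97), with an adjusted p of 0.0102 without 469 and 0.0133 without 469 and 484. All 3 of its probes were called. The manganese exporter SLC30A10 rose by 1.74 (SE 0.35, adjusted p = 0.000374). The bicarbonate cotransporter SLC4A4 rose by 1.57 (SE 0.28, adjusted p = 7.2e-05) and the sodium-proton exchanger SLC9A2 by 1.14 (adjusted p = 0.00571, and 0.0252 without fetuses 484 and 469).

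Of the genes that fell most, several encode proteins of plasma. APOH, a phospholipid-binding plasma protein, had levels of -0.90 to 2.12 (median 0.10) at day 90 and -7.53 to -0.97 (median -4.55) at day 110. No fetus overlapped (log2-fold change -5.03, SE 0.99, adjusted p = 0.000253), and at day 110 it was well above background on 3 of 9 arrays. LECT2, a secreted protein best known from liver, fell 28.1-fold, from levels of 3.76 to 6.01 (median 4.48) to levels of -2.13 to 2.01 (median -0.43) (log2-fold change -4.81, SE 0.65, adjusted p = 2.5e-07). RBP4, the retinol carrier, had levels of 3.0001 to 4.99 (median 3.60) at day 90 and -1.73 to 2.15 (median -1.06) at day 110, and all 4 probes fell (log2-fold change -4.11, SE 0.53, adjusted p = 5.87e-08). AFP, the fetal albumin-like protein, changed by -2.62 (adjusted p = 0.00107), prothrombin F2 by -2.19 (adjusted p = 0.00794, and 0.0137 without fetuses 484 and 469), SERPINA1 by -2.12 (adjusted p = 0.000248) and transferrin TF by -1.65 (adjusted p = 0.00525). Among 18 plasma protein markers 6 fell and 0 rose, the median was -0.48, and the list mean was -1.02 to -0.25 at day 90 and -2.64 to -0.83 at day 110. ALB, which defines the list, was well above background on 5 of 9 arrays at day 90 and on 0 at day 110 (log2-fold change -0.72, adjusted p = 0.228). Of 9 red cell markers 0 were called and all 9 were lower at day 110, with a median log2-fold change of -0.20 and a list mean of -1.47 to 0.289 (median -0.90) at day 90 and -1.67 to -0.443 (median -1.24) at day 110. The part of other cells or of blood in these falls was not tested.

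The remaining large falls were of mixed function. CDH16, a cadherin first found in kidney, was 0.47 to 1.92 at day 90 and -7.79 to 0.95 at day 110, with the 2 highest fetuses (852 and 854) inside the range of day 90 (log2-fold change -4.96, SE 0.93, adjusted p = 0.000135). CPO, a brush-border carboxypeptidase, had levels of -1.83 to 2.01 (median 0.15) at day 90 and -7.59 to 0.42 (median -6.57) at day 110. Its change of -4.65 (adjusted p = 0.00452) was lost without fetuses 484 and 469 (adjusted p = 0.0151) and on leaving out 484, 557, 559, 572, 575 or 850 alone (adjusted p up to 0.0133). MYL7, the atrial myosin light chain (-3.10, adjusted p = 7.66e-07), and XIRP2, an actin-binding protein of striated muscle (-2.86, adjusted p = 0.000115), fell without overlap, while none of 20 smooth muscle markers was called. GRIA4, a glutamate receptor subunit (-2.71, adjusted p = 7.71e-06), and CRSP-2, a calcitonin receptor-stimulating peptide (-3.04, adjusted p = 1.31e-06), also fell without overlap. The level of CRSP-2 at day 110 was -7.62 to -4.24. Of 16 enteric neuron genes 0 were called and 3 were higher at day 110, with a median log2-fold change of -0.40. Of 20 enteroendocrine genes 0 were called and 11 were higher, with a median of 0.09. WT1, a transcription factor of the mesothelium, was the 1 called gene of 3 markers of mesothelium and pacemaker cells (-2.16, adjusted p = 0.000293). FTCD, an enzyme of histidine breakdown, CST9L, a cystatin-like gene, and CLIC6, a chloride channel-like protein, changed by -2.98, -3.34 and -2.90 (adjusted p = 0.00237, 0.00213 and 3.53e-06), each with overlap. The size of such falls depended on the processing. Over the alternatives it was -3.26 to -0.97 for CRSP-2 and -2.92 to -1.33 for GRIA4. For XIRP2 it was -3.07 to -1.47 and for CLIC6 -3.08 to -1.43, and all of these stayed called.

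Among the largest rises were also genes outside the lists. SMPDL3B, a lipid-modifying phosphodiesterase, had levels of -6.28 to -4.26 (median -5.27) at day 90 and -2.77 to 1.15 (median -0.14) at day 110 without overlap (log2-fold change 4.54, SE 0.48, adjusted p = 5.46e-10), although 1 of its 2 probes was called. ASB4, a substrate adaptor of ubiquitin ligases, and PARP15, a member of the ADP-ribosyltransferase family, were well above background on 0 of 9 arrays at day 90. They were above it on 9 and 8 of 9 arrays at day 110, at least 5.84-fold and 5.19-fold higher (adjusted p = 3.06e-06 and 5.34e-06).

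Complement rose in part, with 5 rising and 0 falling of 26 genes. C5, which starts the terminal pathway, had levels of -2.65 to -0.43 (median -2.03) at day 90 and -0.15 to 3.70 (median 2.33) at day 110 without overlap (log2-fold change 3.59, SE 0.38, adjusted p = 6.19e-10). All 3 of its probes rose. C7, another terminal component, rose by 1.96 (SE 0.26, adjusted p = 1.44e-07) in all 4 probes, C9 by 1.24 (SE 0.27, adjusted p = 0.00112), and factor D (CFD) by 0.86 (adjusted p = 0.00912, and 0.019 without fetuses 484 and 469). C2 of the classical pathway rose by 1.23 (adjusted p = 0.00521), and the call was lost on leaving out any 1 of 8 fetuses (adjusted p up to 0.0165). Of 34 interferon-stimulated genes 3 rose and 0 fell, 29 were higher at day 110, and the median log2-fold change was 0.46. OAS1, an antiviral synthetase, rose by 1.83 (adjusted p = 0.00818), the exonuclease ISG20 by 1.16 (adjusted p = 0.00722) and the GTPase GBP1 by 0.72 (adjusted p = 0.00614). The brightest probes of all 3 passed narrowly and lost their calls when any 1 of at least 8 fetuses was left out. Those of OAS1 and GBP1 also lost them without fetuses 484 and 469 (adjusted p = 0.0301 and 0.0167). Another GBP1 probe rose by 1.19 (adjusted p = 2.66e-05). Of 27 MHC and antigen presentation genes 0 were called. B2M changed by 0.47 (adjusted p = 0.198) and SLA-1 by 0.25 (adjusted p = 0.599).

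Of 27 cytokines and chemokines, 5 rose and 3 fell. Beside CCL28, the B cell survival factor TNFSF13B rose by 2.22 (SE 0.49, adjusted p = 0.00129), the neutrophil chemokine CXCL2 by 1.79 (adjusted p = 0.00449), interleukin 1 beta (IL1B) by 1.77 (SE 0.41, adjusted p = 0.00214) and the death ligand TNFSF10 by 0.81 (SE 0.18, adjusted p = 0.00149). For CXCL2 this probe lost its call on leaving out any 1 of 6 fetuses (adjusted p up to 0.0199), whereas a dimmer one rose by 2.81 (adjusted p = 7.26e-09) and the last by 1.37 (adjusted p = 0.021). CXCL13, which attracts B cells to follicles, had levels of -0.19 to 1.86 (median 0.39) at day 90 and -4.71 to -0.28 (median -1.68) at day 110 without overlap (log2-fold change -2.61, SE 0.62, adjusted p = 0.00255), and missed the threshold without fetuses 484 and 469 (adjusted p = 0.0168) and without 469 alone (adjusted p = 0.01002). CXCL12, a stromal chemokine, changed by -1.18 (SE 0.23, adjusted p = 0.00031), and CCL4, a macrophage chemokine, by -0.90 (adjusted p = 0.00145, and 0.0177 without fetuses 484 and 469).

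Of 33 genes of xenobiotic metabolism 4 rose and 2 fell. POR, the reductase that serves cytochromes P450, rose by 0.98 (SE 0.15, adjusted p = 7.03e-06) and NQO1, a quinone reductase, by 0.74 (SE 0.17, adjusted p = 0.00145). FMO1, a flavin monooxygenase, rose by 0.98 (SE 0.23, adjusted p = 0.0023) without overlap, whereas FMO5 of the same family changed by -0.68 (adjusted p = 0.00648). The epoxide hydrolase EPHX1 rose by 1.31 (adjusted p = 0.00703), and the glutathione transferase GSTA4 changed by -0.75 (SE 0.14, adjusted p = 8.48e-05) without overlap. EPHX1 and FMO5 lost their calls without fetuses 484 and 469 (adjusted p = 0.0189 and 0.0126) and on leaving out any 1 of 13 or 9 fetuses (adjusted p up to 0.0189 and 0.0197).

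Of 18 retinoid and vitamin genes, 1 rose and 3 fell. Beside RBP4, the retinaldehyde reductase DHRS3 changed by -0.75 (adjusted p = 0.00438) and the retinoic acid receptor RARB by -0.75 (adjusted p = 0.00196), while ALDH1A3, which makes retinoic acid, rose by 0.98 (adjusted p = 0.00632). These last 3 calls were lost without fetuses 484 and 469 (adjusted p = 0.0106, 0.0128 and 0.0193). Of 28 heat shock and early response genes 3 rose and 0 fell. HSPH1, a heat shock protein, had levels of 0.37 to 0.94 (median 0.72) at day 90 and 1.22 to 2.16 (median 1.42) at day 110 (log2-fold change 0.95, SE 0.14, adjusted p = 3.7e-06) and the vascular peptide ADM of 0.45 to 1.24 (median 0.98) at day 90 and 1.39 to 2.24 (median 1.61) at day 110 (log2-fold change 0.75, SE 0.16, adjusted p = 0.000934), both without overlap. VEGFA, the endothelial growth factor, rose by 0.66 (adjusted p = 0.00435), and the call was lost on leaving out any 1 of 5 fetuses (adjusted p up to 0.0171). None of 16 endothelial markers was called. Of genes of the connective tissue, 0 of 38 collagen and matrix genes were called by their brightest probe and 1 of 31 TGF-beta, BMP and hedgehog genes, the BMP antagonist NOG (-0.74, adjusted p = 0.00716, and 0.0237 without fetuses 484 and 469). The matrix gene SPARC changed by -0.13 (adjusted p = 0.807). The brightest probe of DCN, a matrix proteoglycan, changed by -0.46 (adjusted p = 0.0216), and 4 of its 7 probes were called as falling, by -0.71 to -0.54 (adjusted p = 0.000116 to 0.00269).

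The changes were also computed within slides. All arrays were scanned on 1 day, and 7 of 8 slides held LW fetuses of both ages. Within slides, the median difference between the ages had the direction of the fit for all 98 called genes reported under the rule. These genes were called on the same LW arrays, so the shared direction is no independent check. For REG3A the difference within a slide was 2.70 to 9.17 and for CA4 it was -5.89 to -3.59. With the slide as a fixed block 975 probes rose and 1124 fell, and 92 of the 98 genes kept their calls. With each array centred on its median in place of its 75th percentile, 495 rose and 624 fell and 70 of the 98 kept theirs.

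The change of LW was set against that of the other genotypes, which share no samples with it. Of the 1928 probes called in LW, 622 were called in the same direction in MS (32.3% of the LW calls and 49.2% of the 1265 MS calls), 1268 in LWMS (65.8% and 31.7% of 3996) and 903 in MSLW (46.8% and 41.1% of 2198). In all 3 together 449 (23.3%) were called and in none of them 540 (28.0%). At most 1 of the LW calls was called in the opposite direction in any of them, and 95.6 to 99.1% had the same sign. A call in LW alone is not a difference between genotypes, and the difference itself was tested. The change in LW differed from the mean of the other 3 genotypes for 6 probes (0.0148%) at an adjusted p of at most 0.05, from that in MSLW, which shares the breed of the sow, for 0 (0%), and from that in MS for 16 (0.0395%). At an unadjusted p under 0.05 the limma counts were 2855, 2301 and 2680, and the authors' processed values gave 11, 3 and 33 at the adjusted threshold. With array weights the counts were 2420, 27 and 616, so that the number of differences between genotypes depended strongly on the weighting of arrays.

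**Figure D4:**
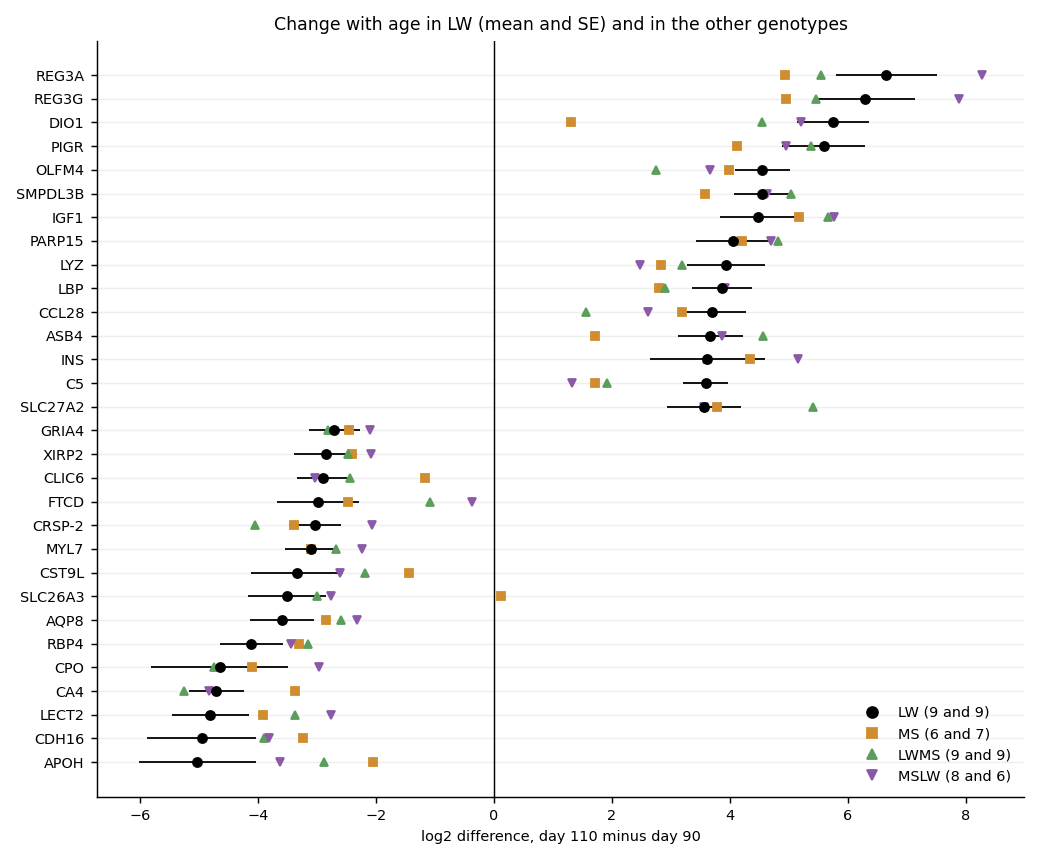
Log2-fold change between day 90 and day 110 of the 15 genes that rose most and the 15 that fell most in LW, with the SE of LW as bars, beside the changes in MS, LWMS and MSLW. The 4 genotypes had the same sign for every gene shown except SLC26A3, which was -3.51 in LW and 0.12 in MS. The choice of genes by their size in LW favours larger values in LW.

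DIO1 was the 1 gene of the 30 largest changes for which the change in LW differed from that in MS. It was 5.75 in LW, 1.31 in MS, 4.54 in LWMS and 5.21 in MSLW, and LW minus MS was 4.44 (SE 0.95, adjusted p = 0.0445). This call was lost in 14 of 18 fits that each left out 1 LW fetus and in 7 of 13 that each left out 1 MS fetus (adjusted p up to 0.0963). In MS at day 110, 1 fetus (632) was at -6.42 against a group median of 1.28, and without it the change in MS was 2.39 and LW minus MS was 3.36 (SE 0.69, adjusted p = 0.0277). At day 90 in LW, 6 of 9 arrays were not well above background for this gene, so the size of its change in LW is uncertain. For SLC26A3, LW minus MS did not pass (adjusted p = 0.232).

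CYP11A1, the enzyme that starts steroid synthesis from cholesterol, gave 4 of the 6 probes, which are not its brightest probe and are named after their values were seen. In LW, the level of one of them was -7.48 to -5.44 at day 90 and -7.81 to -4.82 at day 110, and no array was well above background at either age, so that this probe gave no measured change in LW. In MS it was -2.66 to 0.93 at day 90 and -8.23 to -6.62 at day 110, and in LWMS -3.08 to 0.52 and -8.42 to -7.00. MSLW fetuses at day 90 lay between -6.24 and -0.26, with 5 of 8 arrays well above background. The change in LW minus the mean of the others was 5.98 (SE 0.67, adjusted p = 7.84e-08). The probe was tested because of the groups in which it was bright, and with LW at background this value rests on the fall in the other genotypes and gives no change of LW. Another of the 4 probes was well above background on 7 of 9 LW arrays at day 90 and on 0 at day 110, and changed by -1.77 in LW (adjusted p = 0.0772). The brightest probe of the gene changed by -0.11 in LW (adjusted p = 0.879).

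C1ORF63 and 1 probe of COG5 were the other 2. C1ORF63 had levels of -0.51 to 0.52 (median 0.13) at day 90 and 0.22 to 1.48 (median 1.20) at day 110 in LW, a log2-fold change of 0.97 (SE 0.19, adjusted p = 0.000265), and changed by 0.68 in MSLW, -0.62 in MS and -0.68 in LWMS. The difference from the mean of the others was 1.18 (SE 0.23, adjusted p = 0.0211), and it missed the threshold in 7 of 18 fits that each left out 1 LW fetus (adjusted p up to 0.0644). It also missed the threshold with median centring (1.08, adjusted p = 0.249). Set against MSLW alone, the change in LW did not differ (0.29, adjusted p = 0.821). The COG5 probe, paired with this Golgi complex gene in the study's tables and named after its values were seen, was -8.19 to -5.81 in LW at day 90, with 0 of 9 arrays well above background, and -6.47 to -3.92 at day 110, with 4 of 9. It changed by 1.97 in LW and by -0.62 to -0.24 in the others (difference 2.43, SE 0.47, adjusted p = 0.0211), and the 3 other COG5 probes were not called. With LW at background at day 90 this difference has no certain size, and it did not pass with the authors' values (0.74, adjusted p = 0.355), normexp, quantile normalization or median centring, or in 7 of 18 fits that each left out 1 LW fetus.

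**Figure D5:**
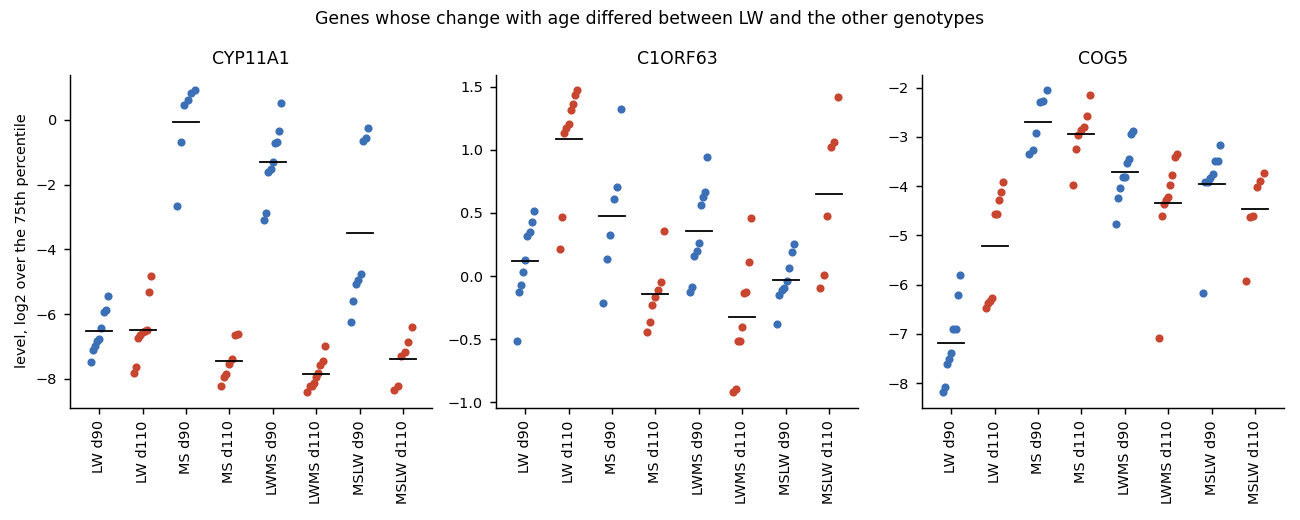
Level of a CYP11A1 probe, of C1ORF63 and of a COG5 probe in every fetus of the 8 groups, with bars for the means. CYP11A1 in LW lies between -7.81 and -4.82 at both ages, below the MS fetuses of day 90, which lie between -2.66 and 0.93.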

How the data were processed

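RNA from the jejunum of 63 male fetuses was hybridised with 1 colour to Agilent porcine oligonucleotide arrays (1 fetus per array, 8 slides), and fetuses were grouped by their labelled genotype and age. The authors deposited the linear spot intensity of each array as Agilent Feature Extraction 10.10.1.1 (from the submitters' processing notes) wrote it after its background correction. Their own log2 values were also deposited and served as an alternative. No spot was saturated, and the number of arrays limits the precision.

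From the intensities, log2 minus the 75th percentile of the array was taken without control spots (1319 of 61625), and outlier spots were set to missing (2775 tested probes lacked a value). Subtracting background makes changes near the floor uncertain in size. Probes entered the tests (40515 of 60305) if in any group 75% or more of the arrays were well above background. The means of 8 groups were fitted with limma 3.58.1 in R 4.3.3, and p-values were adjusted over all tested probes by the Benjamini-Hochberg method. The threshold was 0.01 with a log2 difference of 0.5 for the change with age and 0.05 for differences between genotypes. The steps were tested on simulated data. No litter or sow entered the fit. The p-values rest on the spread between fetuses pooled over the 8 groups, with litter mates counted as independent.

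Names came from the array files, RefSeq tables or, for 1455 of 28137 named probes, tables of the study, which was based on these fetuses; 13176 genes were named. A gene was represented by its tested probe with the highest mean level over the 18 LW arrays. Named were the 15 largest rises and falls, up to 4 called members in each direction of each gene list (or the 2 brightest where none was called), and genes that differed between genotypes. Others were added after their values were seen: markers, TFF2, members that did not pass, and called members beyond the first 4 of a list. The last were DMBT1, TLR3, SLC9A2, TNFSF10 and CFD, for which no fits leaving out 1 fetus are given. The comparison, gene lists and cell markers were chosen with earlier results of these data known. A fold given as "at least" sets arrays that were not well above background at the lowest signal well above background on them, or at the probe's own signal if higher. Alternatives were the authors' log2 values, normexp (offset 50), quantile normalization, median centring, other filters on dim probes, the slide as a block, array weights, LW arrays alone, fetuses left out, other thresholds, and the median probe of a gene. Counts with gene names that leave out the study's tables, and fits without each MS fetus, were added after seeing the data. Some genes that the rule named are not reported here. Values of blood, tissue sections and enzymes were not analysed here.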

Additional observations from a re-analysis of the deposited data

Results flagged for a closer look

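Of 226 sets of values of a gene or array measure in a group of 9 LW fetuses, 18 held a fetus far from the other 8, and chance alone sets apart about 1 group in 20. Of these, 12 were fetus 484 at day 90, which was one of the fetuses that correlated least with their groups (median r = 0.9254). It was high for PARP15 (level -3.46) and SLC51B (4.27), and low for PPARGC1A (0.0617), DAB2 (4.06), CLCA1 (1.60), FCGBP (2.42), CHGA (4.27), IGF2BP1 (0.350), FASN (1.65), POR (0.724) and C7 (-5.21). The others were PLIN2 in fetus 500 (-0.669), SPDEF in 894 (-0.771) and VEGFA in 449 (-1.80) at day 90, and LGR4 in 852 (-0.000779), WFDC2 in 670 (-3.10) and ADM in 850 (2.24) at day 110.

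The test of the difference in change with age set apart 17 probes. For the change in LW minus the mean of the other genotypes, these were 4 CYP11A1 probes (5.98, 5.91, 5.90 and 5.07), C1ORF63 (1.18) and a COG5 probe (2.43). For LW minus MS alone they were CIRBP (-1.44), SRPX2 in both probes (-1.35 and -1.31), MAP2K1 (-1.34), GBP1 (1.71), HSPH1 in 2 probes (1.40 and 0.978), C2orf44 (1.46), ANXA8 (-2.92), DIO1 (4.44) and an unnamed probe (-1.01). Among the genes of the second set, HSPH1 and GBP1 rose in LW (log2-fold change of these probes 1.58, 1.11 and 1.19), while in MS they changed by 0.19, 0.13 and -0.52. In the other direction, 1 SRPX2 probe, CIRBP and ANXA8 fell in LW (-1.53, -1.37 and -2.19), while in MS they changed by -0.23, 0.06 and 0.72.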

How the results depend on the processing

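Under every alternative run, no probe called in LW was called in the opposite direction and none of the 98 called genes reported under the rule changed direction. With median centring the counts of rising and falling probes were 495 and 624, and 6 probes differed between LW and MS. With array weights they were 1674 and 1694, and 2420 probes differed from the mean of the other genotypes, 27 from MSLW and 616 from MS. With the LW arrays alone 582 probes rose and 698 fell, and 67 of the 98 genes kept their calls, the fewest under any alternative. With the threshold of adjusted p at 0.05 and the same fold, 1608 rose and 1774 fell. The authors' values gave 11, 3 and 33 probes that differed from the other genotypes, MSLW and MS. Normexp gave 13 and 1 that differed from the others and from MSLW, no filter on dim probes gave 10 for MS, and a filter on all arrays of an LW group gave 0 for the others; the CYP11A1 and COG5 probes were then not tested, and C1ORF63 was but did not pass (adjusted p = 0.0816). Leaving out each LW fetus in turn (for MS each MS fetus too, added after seeing the data) gave 735 to 1045 rising and 838 to 1103 falling probes, and 4 to 14, 0 to 0 and 8 to 30 probes that differed from the others, MSLW and MS. The highest of these for the others was without fetus 469, and that for MS without MS fetus 826 at day 90. The difference in the share of probes above background was -6.47 to -3.82 points. The causes were not tested.

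Of the 98 genes, 69 kept their calls whichever LW fetus was left out and 77 did without fetuses 484 and 469 together. The slide as a random block kept all 98. No paired analysis was possible because the number of a fetus marks an animal of 1 group and is shared by no other group. Genes near background, such as CYP11A1, COG5, DIO1 and PIGR, have fold changes whose size rests on signals that were not well above background on some arrays.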
